A study of Mus musculus with 12 samples.

Results

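The complement system is a set of soluble and membrane-bound proteins that mark cells, debris and microbes for uptake. C1q, built from an A, a B and a C chain, starts the classical pathway when it binds a target. C4 and C3 are then cleaved onto the target's surface, properdin holds together the enzyme that cleaves more C3 on the alternative pathway, and the released fragments C3a and C5a act on receptors of leukocytes. Tissue macrophages, microglia among them, are a known local source of C1q, while the liver supplies most of the C3 and C4 in plasma.

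Levels of 8 complement genes were followed through the cell types of the meninges: C1qa, C1qb and C1qc, which encode the chains of C1q, C4b and C3, which encode central components, Cfp, which encodes properdin, and C3ar1 and C5ar1, which encode the receptors of C3a and C5a. They were picked by symbol, each symbol matched 1 row in each of the 4 gene expression matrices, and together they are 8 of 28694 gene rows.

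The HI group was 2 libraries from brain meninges of C57Bl/6j mice at postnatal day 4, taken when 6 h had passed since hypoxia-ischemia (HI), which models the brain injury that loss of oxygen and blood flow causes around birth. The naive group was 2 libraries of the same strain, tissue and age with no HI, and no sham-operated group was analysed here. Each library was a pool of 12 pups, 6 male and 6 female, profiled with a droplet kit that reads the 5′ end of transcripts. The 4 libraries were made in 2 runs, each with 1 HI and 1 naive library, but the labels do not say which number belongs to which run. No genetic change is named in the labels.

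After filters on genes, mitochondrial UMIs and doublets, 20725 cells remained, 4070 and 6081 in HI 1 and HI 2 and 4912 and 5662 in naive 1 and naive 2, with median UMI counts per cell between 9574 and 11091. Cell classes were rebuilt from marker genes after the complement genes had been left out of the clustering, and a class is called "like" its marker list. The largest was border-associated macrophage (BAM)-like, with 13126 cells in 15 clusters, then microglia-like with 2403 and non-classical monocyte-like with 1224. Between 26 and 51 cell barcodes were shared by each of the 6 pairs of libraries. An unnamed cluster with neuronal genes in the lead (Stmn2, Map1b, Tubb2b) and BAM markers throughout, cluster 0, held 1.43% and 2.68% of cells in HI 1 and HI 2, against 12.5% and 10.6% in naive 1 and naive 2, and is given separately.

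A level below is the number of a gene's UMIs per 1000000 UMIs (CPM) that a class held in 1 library, so it is compared between classes or groups for the same gene and not between genes. Pairs of values are in the order HI 1 and HI 2, then naive 1 and naive 2. Calls are adjusted p-values under 0.05 from edgeR's quasi-likelihood test over all genes tested, 2-sided. Nothing says that the 2 libraries of a group are more than 2 pools. The p-values therefore rest on the spread between these libraries, which the test moderates across genes. The fits of HI against naive had no term for the run. An exact permutation of 2 against 2 cannot give a p below 0.33.

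The C1q genes lie side by side on chromosome 4 in the GRCm38 build, C1qb at 136880126 to 136886200, C1qc at 136889801 to 136892936 and C1qa at 136895916 to 136898844. C3 (57203967 to 57228136) and C4b (34728139 to 34743902) are on chromosome 17. The promoters of 2 neighbouring C1q genes are shown because the levels of the chains followed each other closely over the tested classes. That of C3 is shown because C3 was low in the macrophage classes, where the chains were highest. The promoters come from RefSeq for GRCm38.p6, run from 250 bases before to 50 bases after the start, and are on the minus strand. They lie at chr4:136886151-136886450 for C1qb, chr4:136892865-136893164 for C1qc and chr17:57228087-57228386 for C3. Capitals mark GAGGAA, the core letters of sites of the myeloid factor PU.1, or its reverse complement TTCCTC, and in C3 a match to TTGCNNAA, letters common in sites of C/EBP factors. The C1qb match was at bases 221 to 226, the C1qc match at bases 58 to 63 and the C3 match at bases 206 to 213.
C1qb promoter: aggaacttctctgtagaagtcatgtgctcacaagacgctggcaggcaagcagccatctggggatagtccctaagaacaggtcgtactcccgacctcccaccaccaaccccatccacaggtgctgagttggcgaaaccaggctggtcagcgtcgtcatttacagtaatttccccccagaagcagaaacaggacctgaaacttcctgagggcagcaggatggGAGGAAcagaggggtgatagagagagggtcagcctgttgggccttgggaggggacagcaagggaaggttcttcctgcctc
C1qc promoter: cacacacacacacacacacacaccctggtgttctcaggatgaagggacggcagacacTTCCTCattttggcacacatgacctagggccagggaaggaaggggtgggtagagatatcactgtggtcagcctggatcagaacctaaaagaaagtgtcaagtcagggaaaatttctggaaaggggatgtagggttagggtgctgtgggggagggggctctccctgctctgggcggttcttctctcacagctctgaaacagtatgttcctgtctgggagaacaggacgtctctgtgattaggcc
C3 promoter: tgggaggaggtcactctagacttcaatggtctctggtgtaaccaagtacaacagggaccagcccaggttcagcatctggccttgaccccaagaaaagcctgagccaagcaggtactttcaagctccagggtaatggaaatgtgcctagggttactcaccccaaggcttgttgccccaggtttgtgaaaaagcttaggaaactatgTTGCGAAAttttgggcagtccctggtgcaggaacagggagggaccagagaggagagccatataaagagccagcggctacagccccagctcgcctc
Both strands of 32851 promoters of the same length were searched, and 28.3% held GAGGAA, 10.8% TTGCNNAA and 3.44% GAAA, any 2 bases and GAAA again, letters common in interferon-stimulated genes that none of these promoters held. Cfp had 2 matches to GAGGAA, while C3ar1 and C5ar1 had none of the motifs. Such a match is a description of letters and not a binding site. Promoters of C1qa and C4b were not used here.

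**Figure D1:**
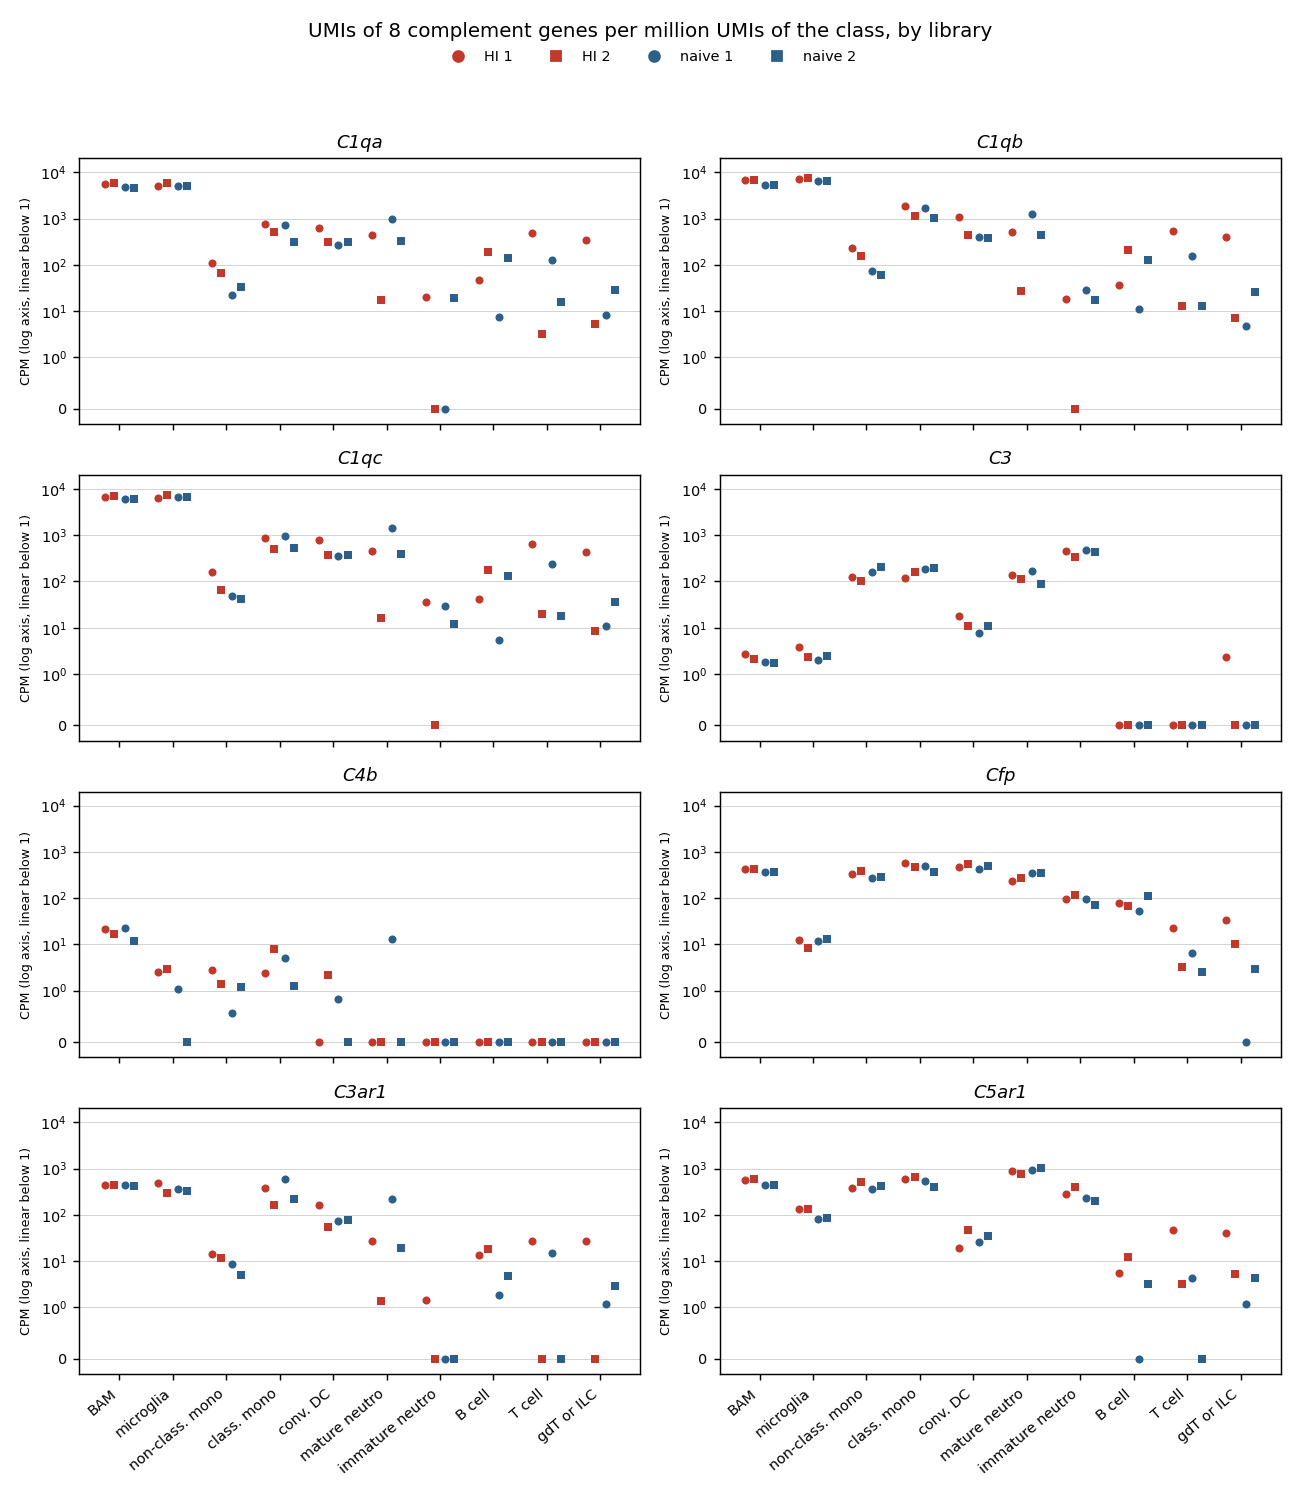
Level of each gene (CPM, log axis that is linear below 1) in 10 cell classes, with 1 point per library, HI in red and naive in blue, circles for replicate 1 and squares for replicate 2. The C1q genes are highest in BAM-like and microglia-like cells, C3 is highest in neutrophils and monocytes, and Cfp drops to between 8.17 and 12.9 CPM in microglia-like cells.

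The C1q chains were at their highest in the macrophage classes. C1qb, the B chain, averaged 6901 ± 563 CPM in microglia-like and 6094 ± 871 CPM in BAM-like cells (SD over the 4 libraries), and the difference between those classes was within its error (log2 0.22 ± 0.18 SE, adjusted p = 0.293). C1qa was at 5258 ± 401 CPM in microglia-like and 5189.6 ± 611 CPM in BAM-like cells (log2 0.06 ± 0.18 SE, adjusted p = 0.799). C1qc was at 6841 ± 406 CPM in microglia-like and 6445 ± 449 CPM in BAM-like cells (log2 0.11 ± 0.18 SE, adjusted p = 0.590). None of the chains was called between these classes, while 68% of 9569 genes were. All 3 chains were found in the same cell almost without exception: with every cell thinned to 3000 UMIs, 99.9% and 99.8% of BAM-like cells of HI 1 and HI 2 and 99.6% and 99.7% of those of naive 1 and naive 2 had a UMI of each. Classes whose cells should lack the chains gave no single background. Thinned B-like and T-like cells had a C1qb UMI in 4.02% and 7.28% of cells, at median depths of 8718 and 8029 UMIs. The share was 63.8% in the 127 neuron or glia-like cells and 57.5% in the 40 choroid plexus epithelium-like cells, at median depths of 9635 and 8549 UMIs and at levels of 3008 and 2952 CPM.

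Classical monocyte-like cells stood between the macrophages and the lymphocytes, and 36.0% of the thinned cells had a C1qb UMI, a lower share than in the neuron or glia-like cells. C1qb was at 1428 ± 417 CPM in them, 3.96-fold lower than in BAM-like cells (adjusted p = 1.8e-10), and C1qa and C1qc were each 8.41-fold lower; 59.9% of 9569 genes differed between these classes, so a call between these classes is common. Cells with at least 10 C1q UMIs were 27 of 63 and 27 of 109 in HI 1 and HI 2, and 29 of 88 and 23 of 84 in naive 1 and naive 2, and they held between 97.0% and 99.1% of the class's C1q UMIs. The rest of the cells held almost none. Non-classical monocyte-like cells had 129 ± 79.6 CPM of C1qb, 47.0-fold less than BAM-like cells (adjusted p = 8.4e-20, with 76.7% of genes called), and 6.70% of the thinned cells had a UMI, a share between those of the B-like and T-like cells. Conventional dendritic cell-like cells were at 579 ± 343 CPM, 8.99-fold below BAM-like cells (adjusted p = 1.4e-14, with 55.3% of genes called).

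The mix of chains differed between classes. Of the C1q UMIs in classical monocyte-like cells, C1qb made up 53.8% and 52.7% in HI 1 and HI 2 and 50.2% and 54.4% in naive 1 and naive 2. In BAM-like cells of the same libraries it made up 35.8% and 34.9%, against 33.4% and 33.1%. The classes did not overlap in any library, and the exact 95% binomial intervals, which cover counting error only, were no wider than 51.8% to 56.9% in the classical monocyte-like cells. Within BAM-like cells the balance differed between groups too: C1qc was 34.8% and 35.5% of C1q UMIs in HI 1 and HI 2, and 37.5% and 38.0% in naive 1 and naive 2. Microglia-like cells had C1qb at 38.0% and 36.5% in the HI libraries and 35.5% and 35.3% in the naive libraries. Non-classical monocyte-like cells had it at 45.9% and 53.4% in HI and 51.0% and 44.3% in naive libraries. Conventional dendritic cell-like cells had it at 43.8% and 39.4% in HI and 39.3% and 35.6% in naive libraries.

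**Figure D2:**
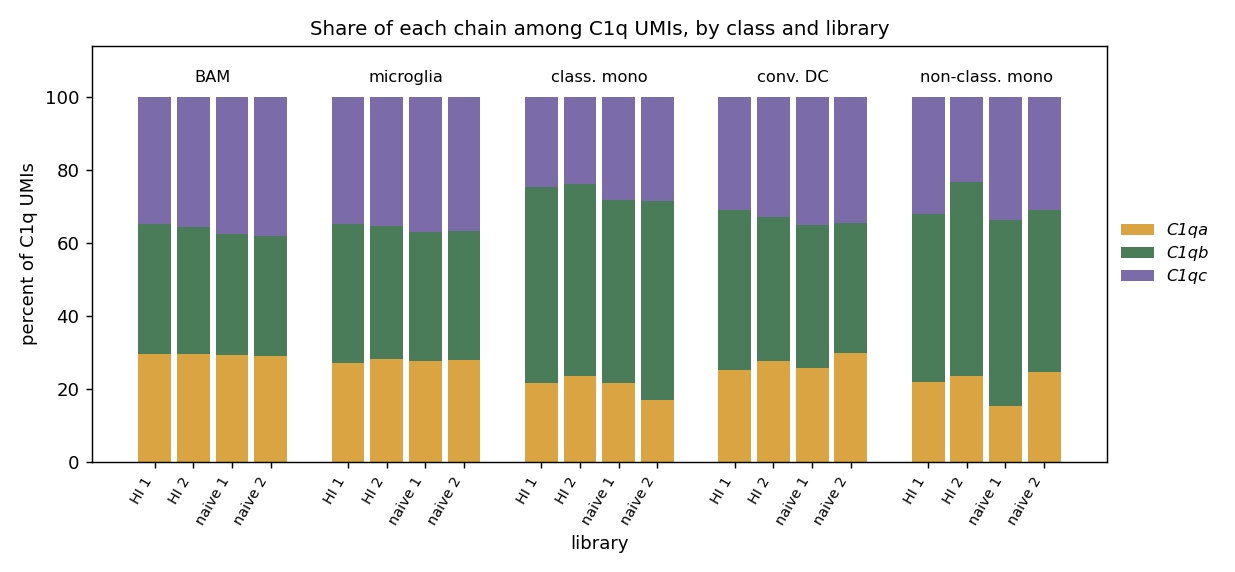
Share of each chain (percent of the C1q UMIs of a class in 1 library), stacked for C1qa, C1qb and C1qc, with libraries HI 1, HI 2, naive 1 and naive 2 in each of 5 classes. C1qb takes over 50% of C1q UMIs in every library of classical monocyte-like cells and under 39% in every library of BAM-like and microglia-like cells. It takes between 44.3% and 53.4% in non-classical monocyte-like and between 35.6% and 43.8% in conventional dendritic cell-like cells.

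At 6 h after HI, 2 of the 3 C1q genes were higher in BAM-like cells. C1qb was at 6865 and 6830.4 CPM in the HI libraries, against 5385 and 5295 CPM in the naive libraries. The groups lay far apart compared with the gap inside each, and C1qb rose 1.29-fold (log2 0.37 ± 0.06 SE, adjusted p = 0.0240). C1qa was at 5648 and 5784 CPM in the HI libraries and 4695 and 4631 CPM in the naive libraries, again without overlap, a 1.23-fold rise (log2 0.30 ± 0.06 SE, adjusted p = 0.0470). C1qc was at 6687 and 6957 CPM in HI and 6050.0 and 6086 CPM in naive libraries; it did not overlap either, but its 1.13-fold difference missed the threshold (log2 0.18 ± 0.06 SE, adjusted p = 0.175). With C5ar1, described further on, 3 of the 8 genes were called in BAM-like cells, all higher, where 3.93% of 12760 genes were called and 2.39% were called higher. The median log2 difference of the 8 genes was 0.27, and that of all genes tested was 0.00.

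These calls depended on the libraries and on how they are paired. Each run held 1 HI and 1 naive library, so pairing by number or pairing across the numbers is the true one. With the numbers crossed, none of the 8 genes was called in BAM-like cells: the adjusted p was 0.159 for C1qb, 0.210 for C1qa and 0.0892 for C5ar1. Without naive 1 the adjusted p of C1qb was 0.0960 and that of C1qa 0.176, and without naive 2 they were 0.317 and 0.412, with log2 differences between 0.29 and 0.37. Markers of other cells differed between the groups as well: all 8 neuron or glia markers were detected in BAM-like cells of every library, at a summed 83.9 and 99.1 CPM in HI and 151 and 141 CPM in naive libraries. The 10 BAM markers summed to 20195 and 20191 CPM in HI and 18926 and 18622 CPM in naive libraries. Their part in the C1q result was not tested.

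Within single BAM-like clusters the HI mean was above the naive mean for C1qb and C1qa, and for C1qc in all but cluster 2. How many of all genes separated by group within clusters was not counted. The clusters are parts of the same pools, so the counts below are a description. Of 14 clusters with enough cells, which share the same 4 libraries, C1qb was higher in both HI libraries than in both naive libraries in 14, C1qa in 13 and C1qc in 13. The ratio of the group means was between 1.10 and 1.36 for C1qb, between 1.01 and 1.30 for C1qa and between 0.981 and 1.20 for C1qc. The steepest C1qb difference was in cluster 9, led by Vcam1, Pmepa1 and Cd38, with 7532 and 7355 CPM in HI and 5452 and 5478 CPM in naive libraries. The shallowest was in cluster 2, led by Ccl8 and Mgl2, with 7336 and 7400.3 CPM in HI against 6891 and 6496 CPM in naive libraries. Cells were also counted one by one: the median thinned BAM-like cell held 21 C1qb UMIs in both HI libraries and 16 in both naive libraries.

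**Figure D3:**
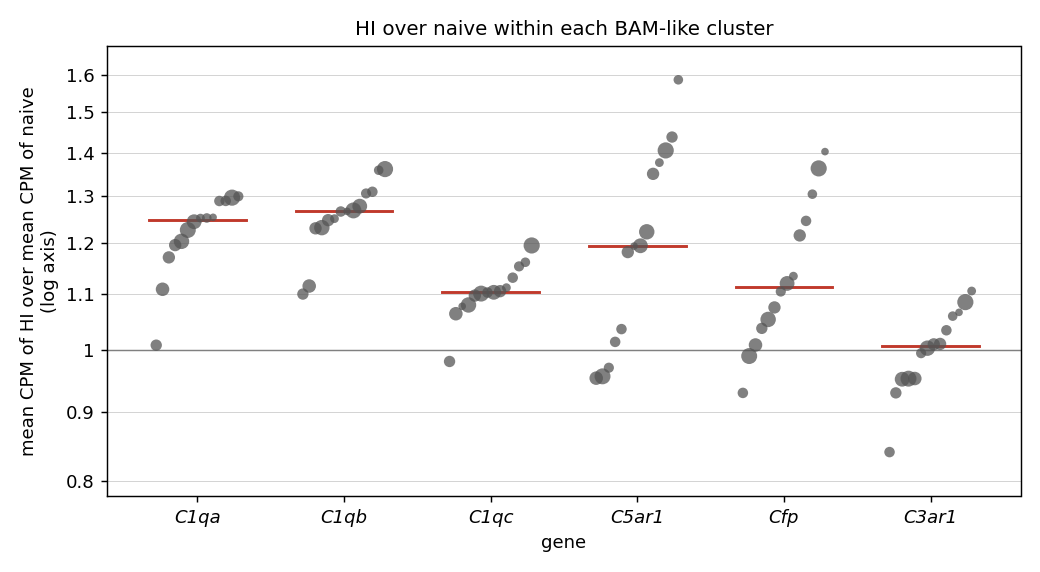
Mean CPM of the 2 HI libraries over that of the 2 naive libraries (log axis) for 6 genes in each of 14 BAM-like clusters, with larger points for clusters of more cells and a red bar at the median cluster. The medians are 1.25 for C1qa, 1.27 for C1qb, 1.10 for C1qc, 1.19 for C5ar1, 1.11 for Cfp and 1.01 for C3ar1.

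Cluster 0, the cells with neuronal genes in the lead, gave the same 3 genes. C1qb was at 6666 and 6389 CPM in the HI libraries and 4891 and 4998 CPM in the naive libraries (1.33-fold, log2 0.41 ± 0.08 SE, adjusted p = 0.00121). C1qa was at 5768 and 5662 CPM in HI and 4406 and 4509 CPM in naive libraries (adjusted p = 0.00468), and C5ar1 was the third. Called were 3 of the 7 genes tested there, all higher, where 2.02% of 10248 genes were called and 1.29% were called higher. The cluster had 58 and 163 cells in HI 1 and HI 2 and 615 and 599 in naive 1 and naive 2. Its neuron or glia markers summed to 611 and 551 CPM in HI and 703 and 728 CPM in naive libraries, and their part in the result was not tested. C1qa and C5ar1 lost their calls without naive 1 (adjusted p = 0.0911 and 0.0745), and C1qb and C1qa with the numbers crossed (adjusted p = 0.0896 and 0.165).

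In microglia-like cells none of the C1q chains was called. C1qb was at 7079 and 7608 CPM in the HI libraries and 6582 and 6337 CPM in the naive libraries, so the groups did not overlap, with log2 0.17 ± 0.06 SE and an adjusted p of 0.246. C1qa (5058 and 5857 CPM in HI, 5107 and 5009.5 CPM in naive) and C1qc (6486 and 7404 CPM in HI, 6860.3 and 6615 CPM in naive) overlapped. Cluster 13, led by Sparc, Ecscr and Tmem119, had C1qb at 8544 and 8540 CPM in HI and 7374 and 7091 CPM in naive libraries. The cluster led by Gpnmb and Spp1 had 6314 and 6448 CPM in HI and 6175 and 6055 CPM in naive libraries. The share of microglia-like cells in the Gpnmb cluster was 38.2% in HI 1 and 16.8% in HI 2, against 27.6% and 25.05% in naive 1 and naive 2, so the HI libraries flanked the naive ones. The HI effect on C1qb did not differ detectably between microglia-like and BAM-like cells (log2 difference of effects -0.18 ± 0.27 SE, adjusted p = 0.969, with 0.268% of 10072 genes called).

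Among monocytes, C1q chains were called only in non-classical monocyte-like cells, where few cells held most of the C1q UMIs. In non-classical monocyte-like cells C1qb was at 232 and 152 CPM in the HI libraries and 73.6 and 60.2 CPM in the naive libraries, a 2.73-fold rise (log2 1.45 ± 0.16 SE, adjusted p = 9.1e-07). C1qa was at 111 and 66.5 CPM in HI and 22.1 and 33.6 CPM in naive libraries (2.84-fold, adjusted p = 4.0e-05), and C1qc at 163 and 66.0 CPM in HI and 48.7 and 42.2 CPM in naive libraries (2.26-fold, adjusted p = 0.00377). With C3, 4 of the 7 genes tested were called in this class, 3 of them higher, where 3.23% of 8339 genes were called and 1.43% were called higher. Cells with at least 10 C1q UMIs numbered 6 of 171 and 10 of 351 in HI 1 and HI 2 and 4 of 286 and 6 of 416 in naive 1 and naive 2, and held 86.9% and 80.6% of the C1q UMIs in HI and 58.4% and 73.0% in naive libraries. The BAM marker list moved with them, at 348 and 162 CPM in HI and 112 and 77.0 CPM in naive libraries, with 9 of 10 markers detected in HI 1, where Folr2 was at 0, and all 10 in the other libraries. Without the cells that held 3 or more BAM marker UMIs, the C1qa log2 difference was 0.05 (adjusted p = 0.979), that of C1qc 0.16 (adjusted p = 0.896) and that of C1qb 0.81 (adjusted p = 0.00105). At a coarser clustering none of the 3 chains was called (adjusted p between 0.533 and 0.790).

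Classical monocyte-like cells had C1qb at 1874 and 1133 CPM in the HI libraries and 1688 and 1017 CPM in the naive libraries. The replicates of a group differed by more than the groups did (adjusted p = 0.904), and the summed BAM markers had the same order, 1983 and 1096 CPM in HI and 1503 and 840 CPM in naive libraries. None of the 7 genes tested was called, where 0.441% of 7250 genes were called. In conventional dendritic cell-like cells C1qb was at 1093 and 444 CPM in HI and 402 and 378 CPM in naive libraries. No gene of 7211 was called there by edgeR (0%) and none by DESeq2. An unadjusted edgeR p under 0.05 was found for 305 genes, a level that some genes reach without any difference. Among them were C1qb (0.0177), C1qa (0.0333) and C1qc (0.0426). Cells with fewer than 3 BAM marker UMIs were 11 of 49 and 17 of 70 in HI 1 and HI 2. They were 30 of 76 and 25 of 81 in naive 1 and naive 2, and the part of BAM markers was not tested.

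C3 was low in the macrophage classes, where the C1q chains were highest. The central component was at 164 ± 33.8 CPM in classical and 147 ± 44.8 CPM in non-classical monocyte-like cells (SD over 4 libraries), and at 2.09 ± 0.481 CPM in BAM-like and 2.64 ± 0.831 CPM in microglia-like cells. That was 84.2-fold (adjusted p = 4.3e-23) and 75.9-fold (adjusted p = 1.8e-24) above BAM-like cells, while the monocyte classes did not differ beyond their error (log2 0.15 ± 0.15 SE, adjusted p = 0.471, with 39.7% of genes called). The level was highest in immature neutrophil-like cells, which carry the granule genes Camp, Ngp and Ltf: 451 and 342 CPM in HI 1 and HI 2, and 474 and 435 CPM in naive 1 and naive 2. Mature neutrophil-like cells had 136 and 113 CPM in HI and 171 and 87.8 CPM in naive libraries, below the immature cells in each library. The neutrophil classes were too small in some libraries to be tested, with 10 immature cells in HI 2 and 25 mature cells in naive 1. No C3 UMI was found in 199 B-like or 151 T-like cells, which allows up to 1.51% and 1.99% of cells with a UMI after thinning.

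Non-classical monocyte-like cells had less C3 after HI. The level was 122 and 102 CPM in the HI libraries and 159.6 and 203 CPM in the naive libraries. Both HI libraries lay below both naive ones, and C3 fell to 0.585 of the naive level (log2 -0.77 ± 0.13 SE, adjusted p = 5.5e-04), where 1.8% of genes were called lower. Fewer cells had a C3 UMI: 27.5% and 23.9% of thinned cells in HI 1 and HI 2 against 37.1% and 38.0% in naive 1 and naive 2, and 47.4% and 38.5% against 54.2% and 57.2% without thinning. The call held when any 1 library was left out, with log2 differences between -0.93 and -0.56, and was lost at a coarser clustering (log2 -0.63, adjusted p = 0.0542). The mature neutrophil list, whose cells express C3, was at 745 and 2032 CPM in these cells in HI and 398 and 776 CPM in naive libraries. The groups overlapped for it, and its part in the C3 result was not tested.

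**Figure D4:**
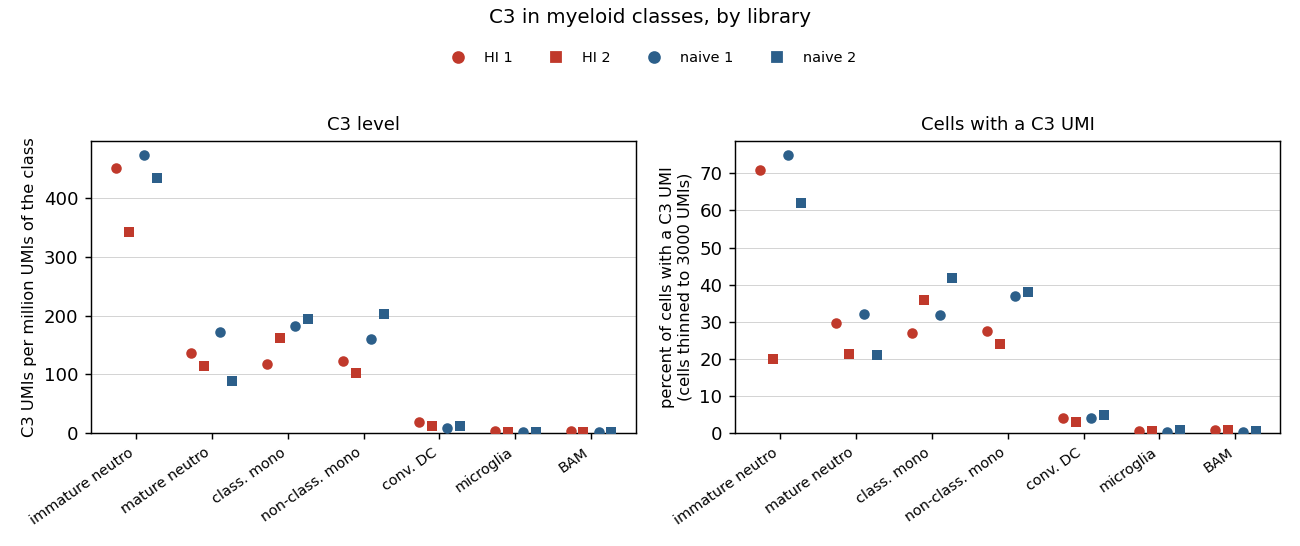
C3 in 7 myeloid classes, as CPM (left) and as the percent of cells with a C3 UMI after thinning to 3000 UMIs (right), with 1 point per library, HI in red and naive in blue. In non-classical monocyte-like cells the HI points (122 and 102 CPM) lie below the naive points (159.6 and 203 CPM), and BAM-like and microglia-like cells lie near 0.

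Other classes gave C3 no call. Classical monocyte-like cells had 118 and 162 CPM in HI and 182 and 195 CPM in naive libraries, without overlap and in the same direction (log2 -0.42 ± 0.19 SE, adjusted p = 0.488). BAM-like cells had 2.75 and 2.15 CPM in HI and 1.77 and 1.69 CPM in naive libraries (log2 0.50 ± 0.19 SE, adjusted p = 0.192). The HI effect on C3 differed between non-classical monocyte-like and BAM-like cells, by -1.28 ± 0.24 SE on the log2 scale (adjusted p = 0.0143, with 0.496% of genes called). That difference was not called without naive 1 (adjusted p = 0.111) or without naive 2 (adjusted p = 0.651).

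C3 and C1q parted within the classical monocyte-like class as well. Of thinned cells with a C1qb UMI, 4 of 31 and 10 of 34 also had a C3 UMI in HI 1 and HI 2, and 6 of 33 and 5 of 26 in naive 1 and naive 2. Of those without a C1qb UMI, 13 of 32 and 29 of 75 had one in HI and 22 of 55 and 30 of 58 in naive libraries. The share was lower among the C1qb cells in each of the 4 libraries, from 124 cells with and 220 without C1qb in all. Many cells of the class also held BAM marker UMIs. Those with fewer than 3 were 16 of 63 and 44 of 109 in HI 1 and HI 2, and 27 of 88 and 39 of 84 in naive 1 and naive 2. The part of BAM markers in this split was not tested.

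C4b, the C4 gene whose product is cleaved after C1q binds, was at a low level, and among the named classes it was highest in BAM-like cells. It was at 21.5 and 16.97 CPM in BAM-like cells of the HI libraries and 22.1 and 11.7 CPM in those of the naive libraries. The groups overlapped (log2 0.20 ± 0.26 SE, adjusted p = 0.714). Microglia-like cells had 2.49 and 2.88 CPM in HI and 1.11 and 0 CPM in naive libraries, from 20, 24, 11 and 0 UMIs, 10.9-fold less than BAM-like cells (adjusted p = 5.4e-13). Classical monocyte-like cells were at 4.16 ± 2.95 CPM (SD over 4 libraries), above the microglia-like cells. Among BAM-like clusters C4b was highest in the Timd4 cluster, at 46.7 CPM, and in the Ccl8 and Mgl2 cluster, at 45.5 CPM, and lowest in cluster 21, led by Egr2, at 6.74 CPM. The Ccl8 cluster had 31.1 and 37.2 CPM in HI and 190.5 and 96.6 CPM in naive libraries, but only 76 of its 757 cells were naive. C4b has a near-identical neighbour, C4a, which was in the wider list given further on and not among the genes tested there. The levels of C4a and C4b were not compared. How reads that match both genes were counted is not given in the sources used here, so the C4b counts are uncertain.

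Cfp, properdin, divided the macrophages. It was at 11.4 ± 2.198 CPM in microglia-like cells and 400.2 ± 37.7 CPM in BAM-like cells (SD over 4 libraries), 34.4-fold less in microglia-like cells (log2 -5.10 ± 0.14 SE, adjusted p = 1.7e-23). Conventional dendritic cell-like cells were at 487 ± 49.8 CPM, classical monocyte-like at 479 ± 91.4 CPM, non-classical monocyte-like at 318 ± 54.5 CPM and mature neutrophil-like at 302 ± 54.0 CPM. Dendritic and classical monocyte-like cells, neighbours in that order, did not differ beyond their error (adjusted p = 0.138, with 32% of genes called). B-like cells had 77.1 and 66.6 CPM in HI and 53.0 and 109 CPM in naive libraries.

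No class called Cfp between the groups. BAM-like cells had 435 and 431 CPM in HI and 373 and 363 CPM in naive libraries, which did not overlap, with log2 0.24 ± 0.05 SE and an adjusted p of 0.0575. Non-classical monocyte-like cells had 331 and 389 CPM in HI and 267 and 284 CPM in naive libraries (log2 0.35 ± 0.11 SE, adjusted p = 0.0712). Mature neutrophil-like cells, which were not tested, had the opposite order, 239 and 275 CPM in HI and 342 and 351 CPM in naive libraries. In microglia-like cells the libraries overlapped, at 12.6 and 8.17 CPM in HI and 11.9 and 12.9 CPM in naive.

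C5ar1, the receptor of C5a, had the largest fold difference of the members called in macrophages. In BAM-like cells it was at 566 and 599.9 CPM in the HI libraries and 443 and 444 CPM in the naive libraries. The naive values were almost equal and both HI values lay above them, a 1.32-fold rise (log2 0.41 ± 0.06 SE, adjusted p = 0.0198). The share of thinned BAM-like cells with a C5ar1 UMI was 70.0% and 72.3% in HI and 63.1% and 62.4% in naive libraries, against at most 3.57% in any library of B-like cells and 36.2% of the neuron or glia-like cells. As with C1q, the call was lost without naive 1 (adjusted p = 0.0636) or naive 2 (adjusted p = 0.1502), as it was with the numbers crossed.

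The BAM-like clusters differed more for C5ar1 than for C1q. It was lowest in the Vcam1 cluster, at 283 CPM, and highest in cluster 10, led by Ccl12, Ccl7 and Ccl2, at 1049 CPM. Both HI libraries were above both naive libraries in 8 of 14 clusters, and the ratio of the group means ran from 0.954 to 1.59. The share of all genes that did so was not counted. In cluster 10 itself the groups overlapped, at 1041 and 1056 CPM in HI and 872 and 1194 CPM in naive libraries. That cluster was 8.13% and 7.42% of BAM-like cells in HI and 1.28% and 1.34% in naive libraries, and the Ccl8 cluster was 13.6% and 7.08% in HI and 1.35% and 1.16% in naive libraries. Without these clusters, over 80% of whose cells were from HI libraries, the C5ar1 log2 difference was 0.27 (adjusted p = 0.0835), the adjusted p of C1qa was 0.0583, and that of C1qb 0.0322.

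Microglia-like cells had less C5ar1, and it was higher after HI there too. Their level was 4.67-fold below that of BAM-like cells (adjusted p = 3.6e-16). It was 134 and 136 CPM in the HI libraries and 83.0 and 84.1 CPM in the naive libraries, a 1.61-fold rise (log2 0.69 ± 0.08 SE, adjusted p = 0.0350). C5ar1 was the only one of the 8 genes called in this class, where 0.128% of 10970 genes were called and 0.082% were called higher. Each of the 3 microglia-like clusters had both HI libraries above both naive ones, and the share of all genes that did so was not counted. The levels were 127 and 147 CPM against 105 and 93.8 CPM in the Tmem119 cluster. They were 147 and 125 CPM against 93.1 and 98.8 CPM in the dividing cluster, and 134 and 121 CPM against 56.4 and 62.7 CPM in the Gpnmb cluster. The call held without any 1 library (adjusted p up to 0.0470) and was lost with the numbers crossed (adjusted p = 0.0750). Mature neutrophil-like and BAM-like cells had more C5ar1, and their markers were also found here. The mature neutrophil list was at 220 and 81.8 CPM in HI and 304 and 171 CPM in naive libraries, and the BAM list at 990 and 689 CPM in HI and 1075 and 1059 CPM in naive libraries. The neutrophil list overlapped between the groups, the BAM list was lower in both HI libraries, and their part in the C5ar1 result was not tested. The difference of the effect from that in BAM-like cells was not called (log2 0.29 ± 0.21 SE, adjusted p = 0.842).

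Elsewhere C5ar1 was higher in neutrophil-like and monocyte-like cells than in conventional dendritic cell-like cells. The 42 basophil or mast cell-like cells had 673 CPM with the libraries summed. Mature neutrophil-like cells had 892 and 763 CPM in HI and 915 and 1015 CPM in naive libraries, and immature ones 281 and 397 CPM in HI and 234 and 198 CPM in naive libraries. Classical monocyte-like cells had 599 and 655 CPM in HI and 551 and 404 CPM in naive libraries (adjusted p = 0.491). Non-classical monocyte-like cells had 382 and 512 CPM in HI and 363 and 429 CPM in naive libraries, with overlap (adjusted p = 0.696). Conventional dendritic cell-like cells were at 31.4 ± 11.9 CPM, 12.8-fold below BAM-like cells (adjusted p = 1.1e-17).

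**Figure D5:**
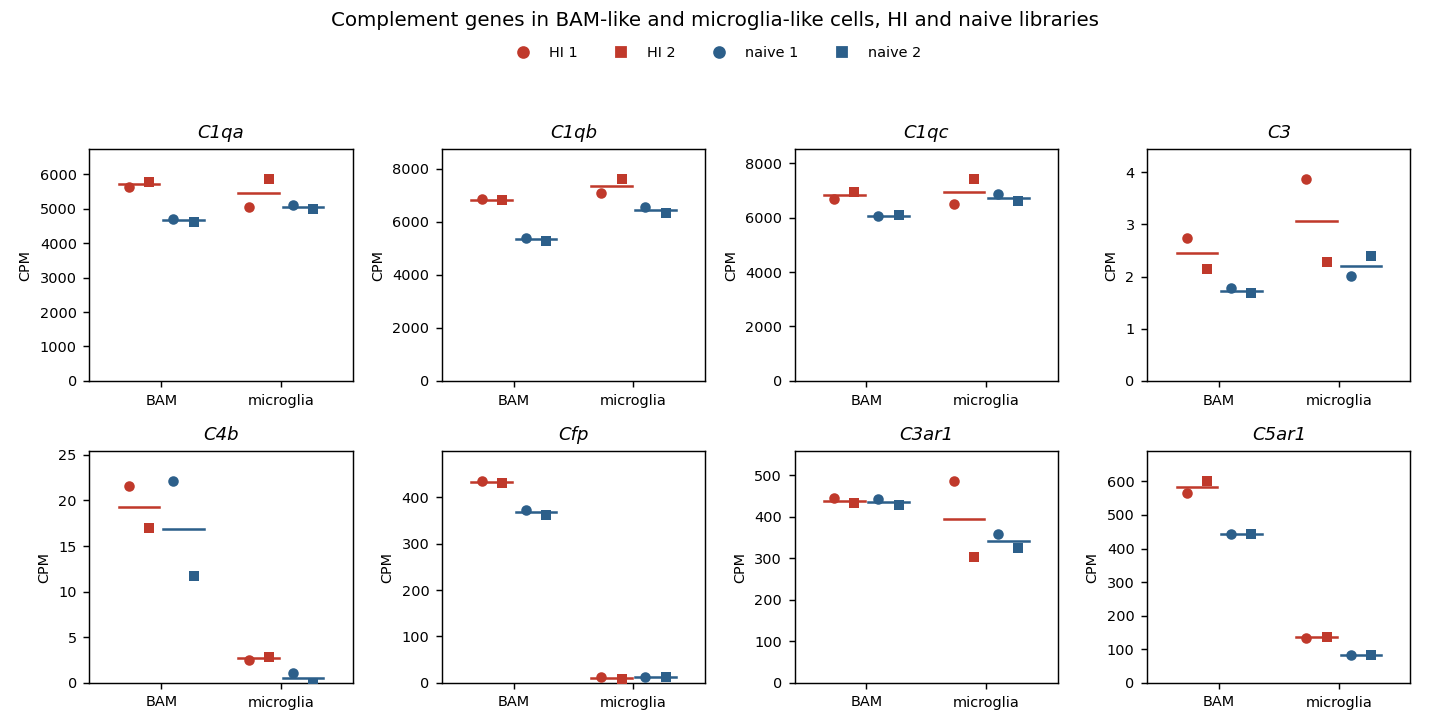
Level (CPM, axis from 0) of the 8 genes in BAM-like and microglia-like cells, with 1 point per library, HI in red on the left of each class and naive in blue, and a bar at the mean of each group. C5ar1 is higher in both HI libraries in both classes (566 and 599.9 against 443 and 444 CPM in BAM-like cells), and C3ar1 overlaps in both.

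C3ar1, the receptor of C3a, was called in no class. BAM-like cells had 445 and 432 CPM in HI and 442 and 428 CPM in naive libraries (log2 0.02 ± 0.05 SE, adjusted p = 0.868). The values of the groups interleaved. Microglia-like cells had 485 and 303 CPM in HI and 359 and 325 CPM in naive libraries, with the HI libraries on either side of the naive ones (adjusted p = 0.664). Within them the Gpnmb cluster had 610 and 422 CPM in HI and 471 and 447 CPM in naive libraries, and the Tmem119 cluster 337 and 263 CPM in HI and 267 and 244 CPM in naive libraries. Classical monocyte-like cells had 342 ± 198 CPM and non-classical ones 9.96 ± 4.10 CPM, a 34.9-fold difference (adjusted p = 1.6e-13). Both receptors were detected in 49.7% and 51.0% of thinned BAM-like cells in HI and 44.3% and 43.6% in naive libraries, and in 16.4% and 16.2% of microglia-like cells in HI and 10.6% and 12.9% in naive libraries.

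Of a wider list of 46 complement genes (initiators, terminal components, regulators and other receptors), 45 had a row. In BAM-like cells 23 were tested and none was called, with a median log2 difference of 0.01. Among those at the highest level there were Fcna, a ficolin that starts the lectin pathway, at 1108 CPM, Colec12, a scavenger receptor of the collectin family, at 339 CPM and C1qbp at 135 CPM. In microglia-like cells 15 were tested, in classical monocyte-like cells 12 and in conventional dendritic cell-like cells 8, with no call.

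The genes whose levels followed the members most closely were listed over 32 sums of 8 classes in 4 libraries, with Pearson's r of log2 CPM among 9569 genes. Each C1q gene had the other chains first (r between 0.9895 and 0.9962). C3 was nearest to Ccdc88c (0.967), Gm5150 (0.965) and Psma2 (0.964), and C4b to Wdr41 (0.900), Siglec1 (0.866) and Tmem106a (0.864). Cfp was nearest to Dok2 (0.958), Mnda (0.944) and Plekhg3 (0.943). C3ar1 was nearest to Slc37a2 (0.949), Hebp1 (0.942) and Tmem37 (0.938), and C5ar1 to Tnfrsf1a (0.918), Ms4a4a (0.904) and Hmox1 (0.892). The sums share libraries and classes, so these are descriptions of likeness.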

How the data were processed

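The deposited values are UMI counts per gene and cell barcode that the authors made, with Cell Ranger 2.2.0 and the builds mm10 and GRCm38 named in the submitters' processing notes; settings are not given in the sources used here. Of the series' libraries, the 4 gene expression libraries were used and 8 receptor libraries were not.

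A barcode needed 200 or more genes, and no more than 10% of its UMIs from mitochondrial genes. Scrublet's automatic threshold marked between 1 and 3 cells per library, so the cells of highest doublet score were removed instead, in a share that grows with the number of cells (142 and 329 in HI 1 and HI 2, 210 and 283 in naive 1 and naive 2). Cells were clustered with scanpy 1.11.5 (2000 variable genes without the complement genes, 40 components, 20 neighbours, Leiden at resolution 1.5, seed 1). Of 36 clusters, those that passed rules on 20 marker lists were named (at least 3 markers, each in at least 20% of cells). Counts were summed per library and class and tested with edgeR 4.0.16 under R 4.3.3 (filterByExpr, TMM, glmQLFTest) where every library held 40 or more cells of the class, with Benjamini-Hochberg adjustment over all genes tested. Class pairs were fitted with a term per library, and differences of HI effects as an interaction. Shares of cells were taken after thinning to 3000 UMIs and, as the alternative, without. Totals were 51986763 and 68543046 UMIs in HI 1 and HI 2 and 62062630 and 65759672 in naive 1 and naive 2; intervals and limits cover counting error only. DESeq2 1.42.0, other filters, scalings, clusterings, a replicate block and each library left out were alternatives. The HI, class pair and interaction fits were tested on simulated data.

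The genes, lists and tests were chosen with earlier results of these data known. The text names the 8 genes in every class, the wider list by its calls or, with none, by the 4 highest levels, and the 3 nearest genes of each member. Some results that this rule would name are not reported here. Symbols used more than once (58) were kept as separate rows.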

Additional observations from a re-analysis of the deposited data

Results flagged for a closer look

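The HI effect on C3 differed between 2 classes of the same libraries. C3 was at 122 and 102 CPM in non-classical monocyte-like cells of the HI libraries and 159.6 and 203 CPM in those of the naive libraries, while BAM-like cells had 2.75 and 2.15 CPM in HI and 1.77 and 1.69 CPM in naive libraries. The test of the difference itself, an interaction term in edgeR, gave -1.28 on the log2 scale (adjusted p = 0.0143). BAM-like cells held between 56 and 95 C3 UMIs per library, and the call was lost without naive 1 (adjusted p = 0.111) or naive 2 (adjusted p = 0.651).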

How the results depend on the processing

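Counts of members called depended on the libraries. In BAM-like cells 3 were higher in the test reported, 1 without clusters of which over 80% of cells came from HI libraries, and between 0 (without naive 2) and 5 (without HI 1) with 1 library left out. In microglia-like cells 1 was higher, 3 with no filter on low counts, and between 1 (without naive 2) and 4 (without HI 1). In cluster 0 there were 3, and between 1 (without naive 1) and 4. In non-classical monocyte-like cells 3 were higher and 1 lower; with doublets kept 1 was higher, without cells holding 3 or more BAM marker UMIs 1 was higher, and at resolution 0.8 the counts were 0 and 0. Classical monocyte-like cells, with none called, had 1 higher with doublets kept and 1 lower with no filter. Conventional dendritic cell-like cells, with none called, had 2 higher with no filter and between 0 and 3 (without HI 2). Between classes, no filter gave 1 higher call in microglia-like against BAM-like cells, where there were 0, and 2 higher calls in classical monocyte-like against BAM-like cells became 1 without naive 1. For the difference of HI effects from BAM-like cells, leaving out a library gave 0 to 2 higher (2 without HI 2) and 0 to 1 lower calls in non-classical monocyte-like cells, 0 to 1 lower in classical monocyte-like and 0 to 1 higher in conventional dendritic cell-like cells (each 1 without HI 2). Counts over all genes, given below, changed across such alternatives too, so these counts are not particular to the members. The cause was not tested.

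The labels number the libraries without saying that a number marks a shared run, so the numbers were not taken as pairs. With a replicate block, members called higher were 3 in BAM-like, 2 in microglia-like, 5 in cluster 0 and 3 in conventional dendritic cell-like cells. With the numbers crossed, chosen after seeing the data, they were 0 in BAM-like, 0 in microglia-like and 1 in cluster 0. Deviations of same-numbered libraries from their group means had r = -0.0189 in BAM-like and 0.253 in microglia-like cells.

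Over all genes, the 501 calls in BAM-like cells became 1832 with no filter, 1536 with the block, 98 with the crossed block, and 81 (without naive 2) to 1725 (without HI 2). The 14 in microglia-like cells became 76 by DESeq2, 736 with no filter, 690 with the block, 8 crossed, 70 with doublets kept, 47 with at most 5% mitochondrial UMIs and 27 to 1326 with 1 library left out. The 207 in cluster 0 became 58 by DESeq2 and 97 at the fewest (without naive 1). The 269 in non-classical monocyte-like cells became 79 by DESeq2, 542 with the block and 140 at resolution 0.8; with no TMM scaling 123 were higher and 103 lower, against 119 and 150. The 32 in classical monocyte-like cells became 66 by DESeq2, 461 with no filter, 242 with the block, 12 crossed, 147 with doublets kept and 4 (without naive 1) to 139 (without HI 2). The 0 in conventional dendritic cell-like cells became 88 with no filter, 69 with the block and up to 36 (without HI 2).

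Uncalled differences changed sign with 1 library left out. On the log2 scale, C3ar1 ran from -0.0033 to 0.037 and C4b from -0.19 to 0.72 in BAM-like cells. In microglia-like cells C3ar1 ran from -0.18 to 0.49, Cfp from -0.61 to 0.012, C1qc from -0.068 to 0.13 and C1qa from -0.013 to 0.20, and Cfp was 0.045 with doublets kept. Without thinning, the share of cells with a UMI was 43.9% for C1qb in classical monocyte-like, 9.48% in non-classical monocyte-like and 9.55% in B-like cells, 49.8% for C3 in non-classical monocyte-like cells, 90.0% and 49.2% for C5ar1 in BAM-like and microglia-like cells, and 5.83% for Cfp in microglia-like cells; by construction, unthinned cells have more UMIs in which to find a gene.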
